A study of Mus musculus with 4 samples.

Results

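The hepatocyte transcription factors described here are 9 genes, Onecut1, Hnf4a, Foxa1, Foxa2, Foxa3, Cebpa, Cebpb, Prox1 and Creb3l3. They were found through the platform annotation as the probe sets that carry only 1 of these symbols. This gave 16 of the 45101 probe sets on the array, and 9 of the 18193 genes with a probe set of their own. All 16 probe sets had a mean above the level filter of 3.74 on the log2 scale, which is the median of the probe set means and was passed by 11587 genes. The arrays measured liver RNA of male mice of the inbred strain C57BL/6J at ages of 4, 8, 13 and 21 months. All mice ate a low-fat diet ad libitum, and the liver RNA of 6 mice was pooled for each array. There is 1 array per age, so no difference could be tested and each is given as its size alone. How much single mice of an age vary cannot be read from pools.

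Hepatocytes keep their identity through a small set of transcription factors that bind the regulatory regions of liver genes together and regulate one another. FOXA1, FOXA2 and FOXA3 are forkhead proteins. FOXA1 and FOXA2 are known as pioneer factors, which can bind sites in closed chromatin. HNF4A is a nuclear receptor needed for most genes of the mature hepatocyte, and ONECUT1, also called HNF6, is a cut-homeodomain protein of hepatocytes and bile duct cells. CEBPA and CEBPB are leucine zipper proteins, the first tied to metabolism in the resting liver and the second to the acute phase response and to regeneration. CREB3L3, also called CREBH, is held in the membrane of the endoplasmic reticulum and is released by proteases during fasting or stress. PROX1 is a homeodomain protein that acts as a co-repressor of HNF4A and of the nuclear receptor NR5A2.

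The regulatory sequence of the factors that varied, and of those tied to them by motif, is shown first. Of the 9 genes all 9 had promoter windows in RefSeq (GRCm38.p6), 14 windows in all. The 250 bases before each annotated start were searched on both strands for 10 motifs. The windows below are those of Onecut1 and Foxa1, the members that varied over the ages by the most, and 1 window each of Foxa2 and Hnf4a, the members whose windows hold the ONECUT motif. They lie at chr9:74861671-74861920 on the plus strand for Onecut1, chr12:57546112-57546361 on the minus strand for Foxa1, chr2:148046970-148047219 on the minus strand for Foxa2 and chr2:163506607-163506856 on the plus strand for Hnf4a. They run 5′ to 3′ up to the base before the start, and capitals mark matches to the motifs searched.
Onecut1: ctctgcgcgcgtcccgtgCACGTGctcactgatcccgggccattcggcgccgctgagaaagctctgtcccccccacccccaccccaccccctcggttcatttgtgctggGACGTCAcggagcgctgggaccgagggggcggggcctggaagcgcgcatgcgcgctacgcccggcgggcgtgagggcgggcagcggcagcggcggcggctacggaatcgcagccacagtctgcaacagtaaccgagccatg
Foxa1: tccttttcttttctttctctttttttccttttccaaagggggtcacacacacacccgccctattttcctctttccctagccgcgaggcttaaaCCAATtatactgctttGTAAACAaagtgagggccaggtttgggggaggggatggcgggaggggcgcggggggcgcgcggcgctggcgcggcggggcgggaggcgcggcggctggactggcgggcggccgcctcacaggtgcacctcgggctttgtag
Foxa2: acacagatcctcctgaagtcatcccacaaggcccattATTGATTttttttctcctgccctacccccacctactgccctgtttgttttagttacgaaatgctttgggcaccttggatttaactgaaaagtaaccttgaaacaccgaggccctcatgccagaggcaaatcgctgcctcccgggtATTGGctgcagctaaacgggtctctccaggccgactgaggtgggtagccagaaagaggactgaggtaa
Hnf4a: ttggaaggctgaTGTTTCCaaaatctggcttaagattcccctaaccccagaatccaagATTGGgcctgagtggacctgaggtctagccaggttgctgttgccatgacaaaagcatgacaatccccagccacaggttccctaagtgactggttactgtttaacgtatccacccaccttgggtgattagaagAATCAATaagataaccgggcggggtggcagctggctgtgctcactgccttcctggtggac
The ONECUT motif, searched as ATTGATT, was found in 2 of the 14 windows and in 2.61% of 32851 windows of the same length over all genes. It lay at positions -213 to -207 from the start of Foxa2 and, on the opposite strand, -60 to -54 from the upstream start of Hnf4a. The forkhead motif, searched as TGTTTNC, was found in 4 windows, among them that of Foxa1, where it lay at positions -141 to -135, and in 17.8% of all windows. The cyclic AMP response motif TGACGTC and the E-box CACGTG were each found in 1 window, both times that of Onecut1, against 2.78% and 6.02% of all windows. A consensus motif of HNF1 was found in 1 window, that of the downstream start of Hnf4a, and in 0.131% of all windows. The C/EBP motif TTGCNNAA, the HNF4 motif CAAAGNCCA and the STAT motif TTCNNNGAA had no match in the 14 windows, against 9.56%, 1.7% and 7.02% of all windows. The motifs TATAAA and CCAAT were in 4 and 6 of the 14 windows, against 12.4% and 33.8% of all. No matches of different motifs overlapped in these 14 windows. A match is a string of letters and not a bound site, and these windows leave out enhancers, where much of the binding of these factors is known to occur.

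Onecut1 and Foxa1 had the largest ranges of the 9 genes over the 4 ages. Onecut1 was higher at 8 and 13 months than at both ends of the age span, Foxa1 was lower at 21 months than at every younger age, and Cebpb was slightly lower at 8 months. The range over the 4 arrays, highest minus lowest log2 value, had a median of 0.23 over the 9 genes and 0.22 over all genes above the filter. It reached 1.05 in Onecut1 and 0.52 in Foxa1, and was 0.29 in Cebpb. The other 6 genes had ranges of 0.14 to 0.25. The place of Cebpb apart from these depends on the scaling, since with quantile normalization its range was 0.24, against 0.26 in both Cebpa and Foxa2. A range at least as large as that of Onecut1 was held by 1.24% of all genes above the filter, as large as that of Foxa1 by 7.34%, and as large as that of Cebpb by 31.8%.

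**Figure D1:**
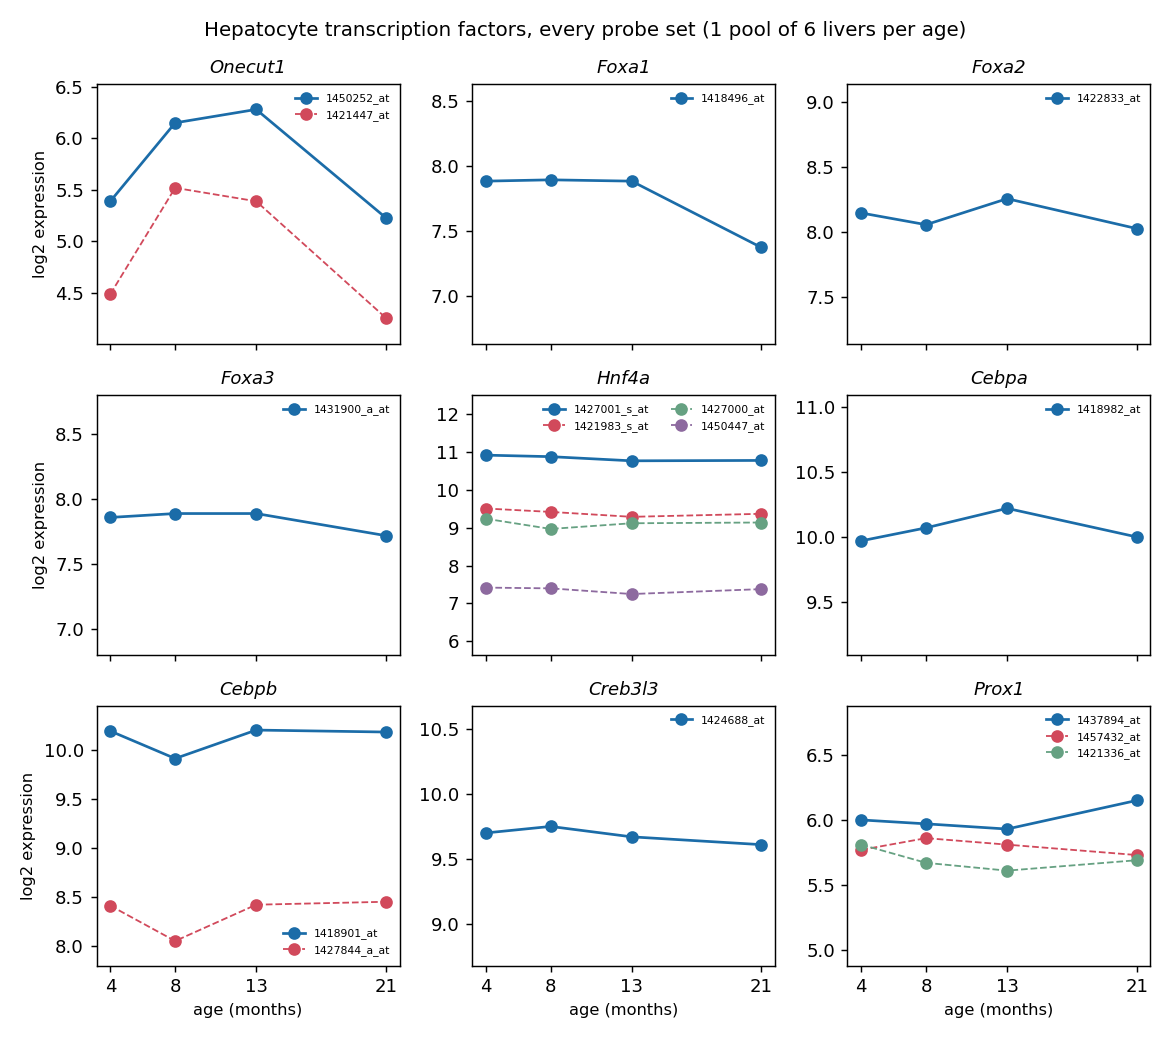
Log2 expression of the 9 genes at 4, 8, 13 and 21 months, 1 panel per gene and 1 line per probe set, each point 1 array of pooled liver RNA. The solid line is the probe set with the highest mean, and axes span at least 2 log2 units. Both Onecut1 probe sets are high at 8 and 13 months, Foxa1 is low at 21 months, and both Cebpb probe sets are low at 8 months.

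Onecut1, the founding member of the ONECUT family, had 2 probe sets. The first (1450252_at) was at 5.39, 6.15, 6.28 and 5.23 on the log2 scale at 4, 8, 13 and 21 months. The second (1421447_at) was at 4.49, 5.52, 5.39 and 4.26. Both probe sets were high at 8 and 13 months and low at 4 and 21 months, with no overlap between the 2 pairs of ages. In the first probe set 8 months was 1.69-fold above 4 months (log2 difference 0.76), and in the second 2.04-fold (1.03). At 21 months the first probe set was lower than at 13 months by a log2 difference of -1.05 and the second by -1.13, so that at 13 months the levels were 2.07-fold and 2.19-fold those at 21 months. The pair of ages 8 and 13 months differed by 0.13 in the first probe set and -0.13 in the second, so their order is not settled. The pair 21 and 4 months differed by -0.16 and -0.23, and in both probe sets 21 months had the lowest value of the 4.

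The distance between the 2 pairs of ages can be stated as the lower of the 8- and 13-month values minus the higher of the 4- and 21-month values. It was 0.76 in the first Onecut1 probe set and 0.90 in the second. Of the 11587 genes above the filter 1 had a distance of 0.76 or more, which was Onecut1 itself. This is a description of 4 arrays, made with the values of Onecut1 known. Onecut2, a related gene, stayed within 0.15 over the ages, at 7.69, 7.57, 7.72 and 7.69.

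Genes of bile duct cells, which also express Onecut1, were measured beside it. Of 12 bile duct markers 9 had a probe set and 3 passed the level filter, and Krt19 and Krt7, the keratins that define these cells, were both below it. The sum of the 9 markers on the linear scale was 100.3, 136.8, 100.2 and 95.9 at 4, 8, 13 and 21 months. Much of the 8-month sum came from Krt19, at 3.48, 4.99, 3.32 and 2.99, and Muc1, at 3.67, 4.31, 3.36 and 3.47. Both had a mean below the filter of 3.74, while their 8-month values lay above that level. Whether those values are background was not tested. Of the 3 markers with a mean above the filter, Cldn4, which encodes a tight junction protein, was at 3.92, 4.29, 4.32 and 3.92. It was high at the same ages as Onecut1, while Epcam and Sox9 were highest at 21 months. The median of these 3 was 0.09 for 8 vs 4 months and -0.02 for 13 vs 4 months, and with the mean over probe sets 0.38 and 0.18. The part of bile duct cells in the Onecut1 pattern was not tested. In bulk tissue, fewer cells of a type and less RNA per cell cannot be told apart. The median of 13 circadian clock genes above the filter differed by 0.17 for 8 vs 4 months and by -0.25 for 21 vs 13 months. Their median for the mean of 8 and 13 months minus the mean of 4 and 21 months was 0.15, the highest among the 19 lists examined. In 8 of the 13 both the 8- and the 13-month value lay above both the 4- and the 21-month value, as in Onecut1, against 16.5% of all genes above the filter. Per2, a core repressor of the clock, was at 5.24, 5.36, 5.84 and 5.24, and Hlf, a clock output gene, at 7.51, 7.61, 7.64 and 7.44. Dbp, another output gene, was at 7.98, 9.07, 9.14 and 8.79. Arntl, Nfil3 and Clock, in the same list, went the other way. Their mean of 8 and 13 months minus that of 4 and 21 months was -0.42, -0.37 and -0.195. Fasting and feeding genes, 11 above the filter, had a median of -0.32 for 21 vs 4 months and 0.04 for 8 vs 4 months. The list mixes genes of both states, so its median hides a split. For 21 vs 4 months 3 were higher and 6 lower by 1.2-fold or more, against 9.02% and 5.5% of all genes. The 3 higher were Thrsp (0.98), Srebf1 (0.90) and Fasn (0.66), and Angptl4 (-0.67) and Fgf21 (-0.53) were lowest. Neither the hour nor the feeding state at collection is known here, and the part of clock phase and feeding in the Onecut1 differences was not tested.

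The Foxa genes differed from each other in their pattern over age. Foxa1 (1418496_at) was at 7.88, 7.89, 7.88 and 7.37 at 4, 8, 13 and 21 months. The 3 younger ages lay within 0.01 of each other, and 21 months stood apart below them. The log2 difference was -0.51 for 21 vs 4 months and for 21 vs 13 months, so that the 4-month and the 13-month level were each 1.42-fold the 21-month level. In 20 of the 11587 genes above the filter, 0.173%, the 21-month value lay at least as far below all 3 younger values. This measure was chosen with the values of Foxa1 known. By range alone 7.34% of these genes varied at least as much. Foxa1 has 1 probe set, so no second probe set could be set beside it.

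Foxa2 (1422833_at), which in mice is linked to bile acid transport and the fasting response, was at 8.15, 8.06, 8.26 and 8.03. Foxa3 (1431900_a_at), the remaining forkhead gene of the family, was at 7.86, 7.89, 7.89 and 7.72. Both had their lowest value at 21 months, as Foxa1 did, but by less. For 21 vs 13 months Foxa2 differed by -0.23 and Foxa3 by -0.17, and for 21 vs 4 months by -0.12 and -0.14. Over all genes above the filter, 90% of the differences for 21 vs 4 months lay between -0.27 and 0.37, which includes Foxa2 and Foxa3 but not Foxa1.

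**Figure D2:**
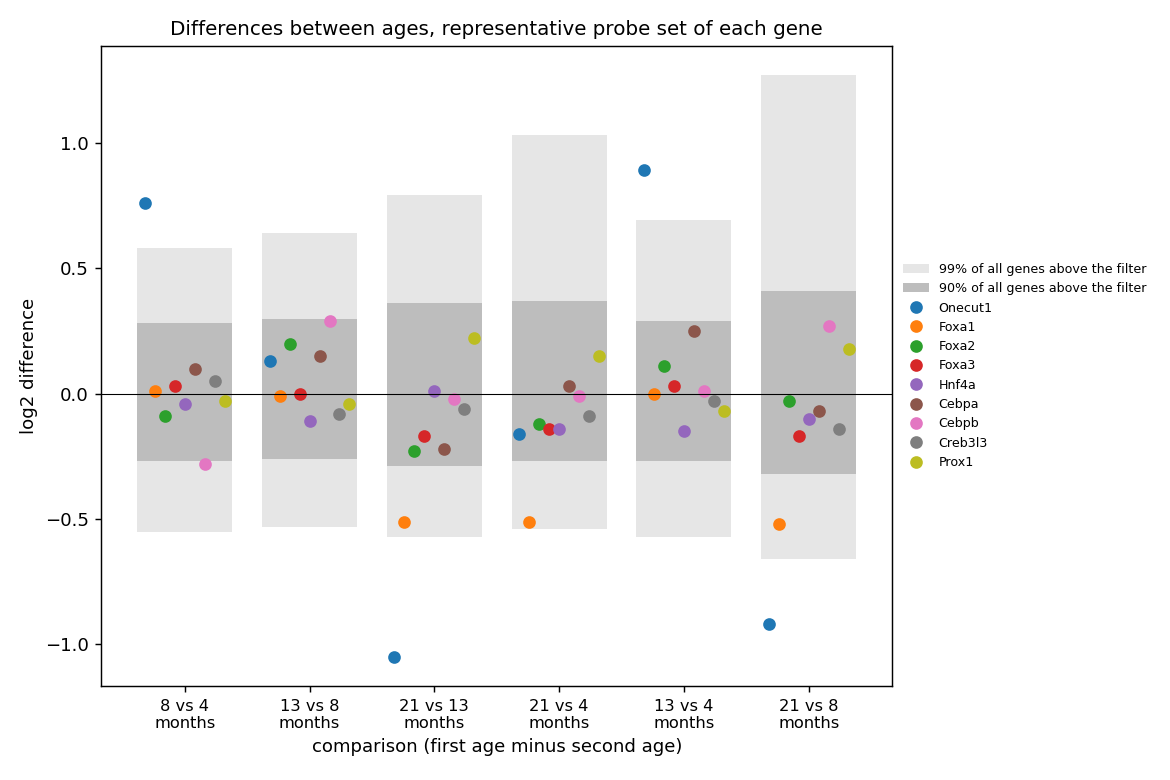
Log2 difference between 2 ages for the probe set with the highest mean of each of the 9 genes, 1 coloured point per gene, in 6 comparisons. Dark and light grey boxes span 90% and 99% of all genes above the level filter. Onecut1 lies outside the light box in 4 comparisons, Foxa1 lies between the dark and light limits in the 3 comparisons that hold the 21-month array, and the other genes lie inside the dark box except Cebpb for 8 vs 4 months.

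Hnf4a had 4 probe sets, and none of them showed a range above 0.27. The probe set with the highest mean (1427001_s_at) was at 10.92, 10.88, 10.77 and 10.78 at 4, 8, 13 and 21 months. The others were 1421983_s_at, at 9.51, 9.42, 9.29 and 9.37, 1427000_at, at 9.24, 8.97, 9.12 and 9.14, and 1450447_at, at 7.42, 7.40, 7.25 and 7.38. All 4 were highest at 4 months, and 3 of the 4 were lowest at 13 months. The difference for 21 vs 4 months was between -0.14 and -0.04 in each. The annotation used gives gene symbols and not isoforms, so products of different Hnf4a promoters could not be told apart.

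Cebpa (1418982_at) was at 9.97, 10.07 and 10.22 at 4, 8 and 13 months, and at 21 months it lay 0.03 above its 4-month value. Its highest value was at 13 months, with a difference of 0.25 for 13 vs 4 months. Cebpb, in contrast, was lower at 8 months in both of its probe sets. The first (1418901_at) was at 10.19, 9.91, 10.20 and 10.18, and the second (1427844_a_at) at 8.41, 8.05, 8.42 and 8.45. The 8-month value lay below the other 3 ages, which were within 0.02 of each other in the first probe set and within 0.04 in the second. The 8 vs 4 months difference was -0.28 and -0.36.

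Cebpb is also expressed in macrophages and neutrophils, and markers of both were measured. On the linear scale the sum of 15 macrophage markers, 14 of them above the filter, was 3461, 2598, 3646 and 5890 at 4, 8, 13 and 21 months. It was low at 8 months, as Cebpb was, and high at 21 months, where Cebpb was within 0.04 of its 4-month level. The sum of 9 neutrophil markers was 175.1, 194.9, 211.4 and 363.2, and its 8-month value holds Ltf, which was at 3.28, 5.22, 3.53 and 3.56. The median of the 6 neutrophil markers above the filter was -0.03 for 8 vs 4 months. Macrophage markers had a median of -0.41 for 8 vs 4 months and 0.72 for 21 vs 4 months, and these neutrophil markers 0.82 for 21 vs 4 months. With quantile normalization or cyclic loess the 8 vs 4 months difference of the first Cebpb probe set was -0.24 or -0.26, just under 1.2-fold. The part of macrophages in the 8-month value of Cebpb was not tested.

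Creb3l3 (1424688_at) was at 9.70, 9.75, 9.67 and 9.61, a range of 0.14. Prox1 had 3 probe sets that did not share a pattern. The one with the highest mean (1437894_at) was at 6.00, 5.97, 5.93 and 6.15, the next (1457432_at) at 5.77, 5.86, 5.81 and 5.73, and the last (1421336_at) at 5.81, 5.67, 5.61 and 5.69. For 21 vs 4 months they differed by 0.15, -0.04 and -0.12, so no direction is given for Prox1. Lymphatic endothelium also expresses Prox1, and the summed level of 6 of its markers was 738.0, 689.2, 700.7 and 743.5, with a median difference of 0.03 for 21 vs 4 months over the 5 above the filter.

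A member was counted as different when it was at least 1.2-fold (0.26 on the log2 scale) higher or lower between 2 pools, and each count stands beside the same share over all genes above the filter. For 8 vs 4 months 2 of the 9 were, Onecut1 higher and Cebpb lower, against 10.7% of all genes. For 13 vs 8 months 1 was, Cebpb higher, against 11.5%. For 21 vs 13 months 2 were, Onecut1 and Foxa1, both lower, against 15.5%. For 21 vs 4 months 1 was, Foxa1 lower, against 14.5%. For 13 vs 4 months 1 was, Onecut1 higher, against 11.3%, and for 21 vs 8 months 3 were, Onecut1 and Foxa1 lower and Cebpb higher, against 19.0%. With 9 genes, counts of 1 to 3 do not set the list apart from these shares.

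Stricter and looser thresholds show how much of this rests on Onecut1. At 1.5-fold Onecut1 was the only member counted, in 4 of the 6 comparisons. The share of all genes past 1.5-fold was 0.854% for 8 vs 4, 1.08% for 13 vs 8, 1.92% for 21 vs 13, 2.53% for 21 vs 4, 1.29% for 13 vs 4 and 3.36% for 21 vs 8 months. At 2-fold Onecut1 was counted for 21 vs 13 months alone. The share past 2-fold was 0.129% for 8 vs 4, 0.207% for 13 vs 8, 0.362% for 21 vs 13, 0.595% for 21 vs 4, 0.233% for 13 vs 4 and 1.07% for 21 vs 8 months. At 1.1-fold 2 to 6 of the 9 were counted. The share past 1.1-fold was 34.6% for 8 vs 4, 36.4% for 13 vs 8, 41.3% for 21 vs 13, 39.6% for 21 vs 4, 35.2% for 13 vs 4 and 45.7% for 21 vs 8 months, so at this threshold counting separates little. The comparisons share arrays, so a chance deviation of 1 pool enters several of them.

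By the probe set with the highest mean, more of the 9 genes were lower than higher at 21 months. For 21 vs 4 months 7 of the 9 genes were lower and 2 higher, with a median log2 difference of -0.12 against 0.01 over all genes, of which 45.2% were lower. For 21 vs 13 months 7 were lower and 2 higher, with a median of -0.17 against 0.01, and 46.4% of all genes were lower. Some of these signs are not settled. Cebpb counted as lower at -0.01 for 21 vs 4 and -0.02 for 21 vs 13 months. Its second probe set differed by 0.04 and 0.03. Prox1 counted as higher for 21 vs 4 months at 0.15, with its other probe sets at -0.04 and -0.12. For 8 vs 4 months 5 were higher and 4 lower, with medians of 0.01 and 0.00. Of the 9 genes 5 had their lowest value at 21 months, namely Onecut1, the 3 Foxa genes and Creb3l3, as did 25.1% of all genes above the filter. Apart from Onecut1 and Foxa1 these differences were under 1.2-fold. Of 17 hepatocyte markers 9 were higher and 7 lower for 21 vs 4 months, with a median of 0.01. Their sum on the linear scale was 102298, 99428, 102565 and 103965 at the 4 ages. It is carried by Alb and other probe sets close to the highest value on the arrays. Whether such bright probe sets can still show a rise was not tested. The clotting factor gene Fgb (0.37), Tat (-0.35) and the heme carrier gene Hpx (0.29) differed most of these markers for 21 vs 4 months. Hpx was at 12.52 at 4 months, near Apoc3 (12.51) and Apoh (12.46), which both differed by 0.01 for 21 vs 4 months. Hpx is also in the list of acute phase targets of CEBPB. Markers of sinusoidal endothelium and of stellate cells had medians of 0.05 and 0.08 for 21 vs 4 months.

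The genes whose age pattern was nearest to that of Onecut1 and Foxa1 were found by the Euclidean distance between centred log2 profiles over the 4 arrays, among 1729 other genes with a range of at least 0.4. For Onecut1 the nearest was Cyp26b1, which encodes a retinoic acid hydroxylase, at 5.21, 5.96, 5.81 and 4.76 (distance 0.29). Id4, an inhibitor of basic helix-loop-helix factors, was at 4.58, 5.50, 5.51 and 4.80 (0.30), and Cgref1 at 4.11, 4.64, 4.61 and 3.88 (0.30). All 3 were higher at 8 and 13 months than at 4 and 21 months. For Foxa1 the nearest was Cyp8b1, the sterol 12α-hydroxylase of bile acid synthesis, at 10.90, 10.85, 10.91 and 10.38 (distance 0.05). Nat8f5 was at 6.38, 6.36, 6.41 and 5.92 (0.06) and A2m, which encodes a protease inhibitor, at 4.18, 4.25, 4.22 and 3.77 (0.07). Each of these had the step down at 21 months alone. With 4 arrays, nearness of profiles is a description.

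**Figure D3:**
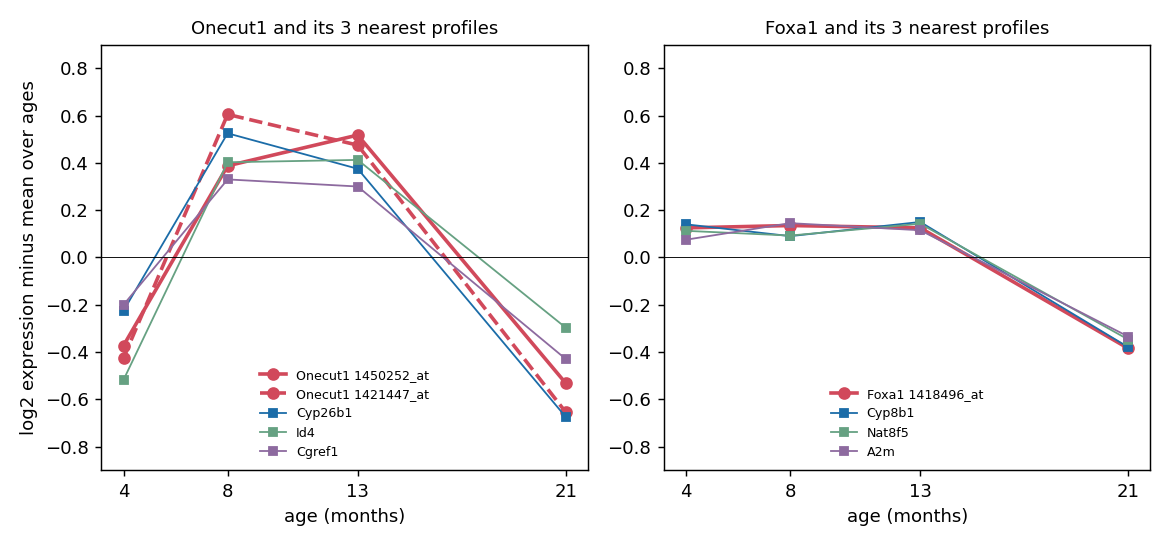
Log2 expression minus each probe set's mean over the 4 ages, for Onecut1 (2 probe sets, left) and Foxa1 (right) in red with the 3 genes of nearest profile. The second Onecut1 probe set, dashed, took no part in the search. The Onecut1 neighbours are high at 8 and 13 months and the Foxa1 neighbours low at 21 months alone.

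Known target genes of the factors were then set beside them, in lists that overlap. Of 8 measured targets of ONECUT1, the median of the mean of 8 and 13 months minus the mean of 4 and 21 months was 0.01, against 0.91 for the Onecut1 probe set with the highest mean. For 8 vs 4 months, where Onecut1 was higher by 0.76, all 8 were lower, against 48.7% of all genes above the filter. Their median was -0.05, and 6 of them were lower by 0.09 or less, the median absolute difference of all genes. For 13 vs 4 months, where Onecut1 was higher by 0.89, 4 were higher and 4 lower, with a median of 0.00. For 21 vs 13 months, where Onecut1 differed by -1.05, 5 were lower and 3 higher, with a median of -0.06. Of all genes above the filter 45.5% were lower for 13 vs 4 months and 46.4% for 21 vs 13 months. The largest differences for 8 vs 4 months were in Tat and Cyp7a1. Tat, the tyrosine-degrading enzyme, was at 11.47, 10.81, 11.07 and 11.12, and Cyp7a1, which catalyses the first step from cholesterol to bile acids, at 9.52, 8.90, 9.96 and 9.11. Foxa2 and Hnf4a, whose windows above hold the ONECUT motif and which are themselves in this list, differed by -0.09 and -0.04 for 8 vs 4 months. At 21 vs 4 months 7 of the 8 were lower, against 45.2% of all genes, with a median of -0.13.

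Of 15 measured FOXA targets 11 were lower and 4 higher at 21 than at 4 months, against 45.2% of all genes lower. Their median was -0.04 against 0.01 over all genes. At least 1.2-fold lower were 4, Igfbp1 (-0.41), G6pc (-0.38), Tat (-0.35) and Ehhadh (-0.34), which act in growth factor binding, glucose release, tyrosine breakdown and peroxisomal fat oxidation, and none was 1.2-fold higher. Over all genes above the filter 5.5% were 1.2-fold lower. For 21 vs 13 months, where Foxa1 also differed by -0.51, Ehhadh differed by -0.51, but Igfbp1 by -0.07, G6pc by -0.10 and Tat by 0.05. For 8 vs 4 months, where Foxa1 differed by 0.01, Igfbp1 differed by -0.68 and Tat by -0.66. Alb and Ttr, the plasma proteins through which FOXA factors were first studied, differed by -0.01 and -0.04. The 17 HNF4A targets had a median of -0.03, with 2 at least 1.2-fold lower, Cyp8b1 (-0.52) and Cyp7a1 (-0.41), and the lipoprotein gene Apob at -0.26. The 8 CEBPA targets had a median of -0.03, with G6pc and Tat again the only ones past 1.2-fold.

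The acute phase targets of CEBPB behaved otherwise. At 21 vs 4 months each of the 11 measured was higher, 9 by 1.2-fold or more, and their median was 0.69. Over all genes above the filter 9.02% were 1.2-fold or more higher. Cebpb itself differed by -0.01 and 0.04 in its 2 probe sets between the same ages. Lcn2, an iron-siderophore binding protein, was at 4.88, 5.34, 5.53 and 9.78, and Cebpd, another C/EBP gene of the acute phase, at 6.58, 6.21, 6.49 and 6.71. The 3 measured C/EBP relatives had a median of 0.01 for 21 vs 4 months. The protein level and activity of CEBPB were not measured on these arrays. Stat3, another factor of the acute phase response, was at 8.30, 8.09, 8.37 and 8.93, higher by 0.63 for 21 vs 4 months.

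Targets of CREB3L3 moved in both directions, while Creb3l3 differed by -0.09 for 21 vs 4 months. Of 10 above the filter 6 were higher and 4 lower, with a median of 0.06, and 1 was higher and 2 lower by 1.2-fold or more. Over all genes 9.02% were higher and 5.5% lower by this much. Apcs, the serum amyloid P gene of the acute phase, was higher by 1.45, and Fgf21, a fasting hormone, differed by -0.53. The lipoprotein gene Apoa4 was at 8.65, 9.13, 9.44 and 8.88, high at 8 and 13 months. The proteases that release CREB3L3 were steady, with Mbtps1 at 7.72, 7.70, 7.62 and 7.77 and Mbtps2 at 6.12, 5.99, 5.98 and 6.05. Of the related membrane-bound factors Creb3l2 varied, at 6.29, 5.97, 5.68 and 6.42. This list of 6 genes had a median of 0.02 for 21 vs 4 months, with none past 1.2-fold. Of 4 genes repressed by PROX1 or bound to it, 3 were lower and 1 higher for 21 vs 4 months, with a median of -0.09 and Cyp7a1 (-0.41) the only one past 1.2-fold. Nr0b2, a nuclear receptor that also represses Cyp7a1, was at 8.93, 8.67, 7.80 and 8.85, with its low value at 13 months, where Cyp7a1 had its highest. Nr5a2, the receptor that PROX1 binds, was at 7.91, 7.59, 7.77 and 7.81.

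**Figure D4:**
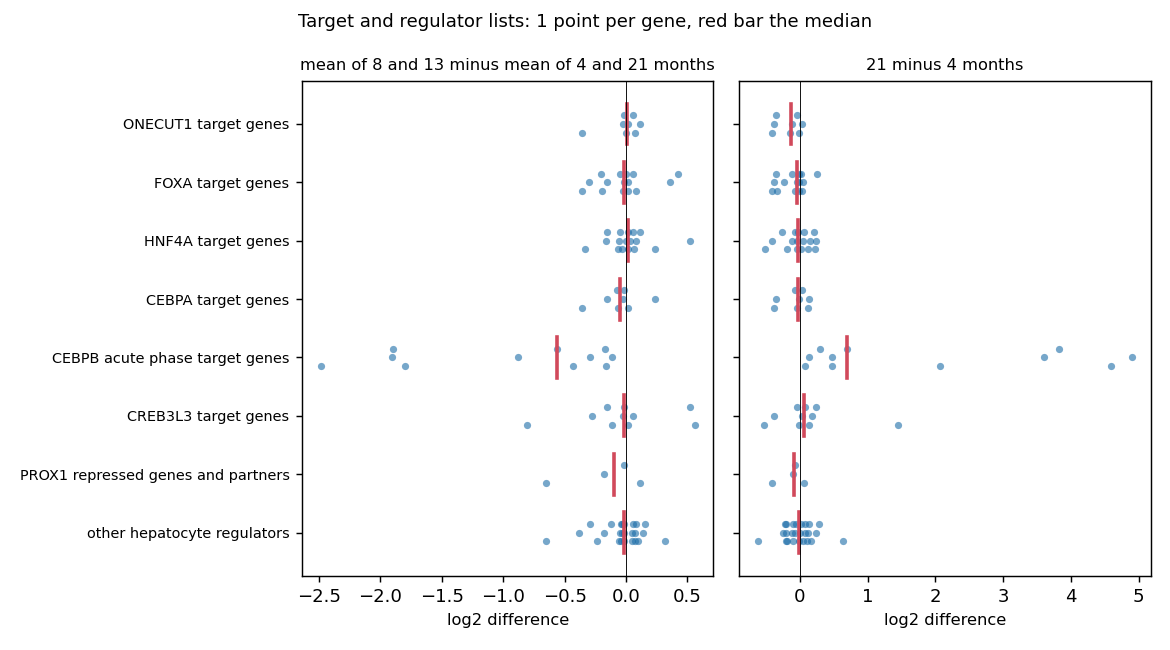
Log2 differences of the genes above the level filter in 8 lists, for the mean of 8 and 13 minus the mean of 4 and 21 months (left) and for 21 minus 4 months (right). Each blue point is 1 gene and each red bar the median of its list. The ONECUT1 targets have a median of 0.01 on the left, and only the CEBPB acute phase targets have a median far from 0, at -0.56 on the left and 0.69 on the right.

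Other regulators of hepatocytes mostly differed little between 21 and 4 months. Of 25 measured 11 were higher and 13 lower for 21 vs 4 months, with a median of -0.01. Stat3 was 1.2-fold or more higher together with Xbp1 (0.28), a factor of the unfolded protein response. Hhex, a homeobox gene of liver development, was the only one lower by 1.2-fold or more, at 8.77, 8.26, 8.97 and 8.15 over the ages, and its values went up and down between ages. The nuclear receptors of this list were within 1.2-fold of their 4-month level at 21 months. Nr1h4, the bile acid receptor, differed by 0.10, Rxra by 0.14 and Nr1i2 by -0.12. Ppara differed by -0.20, Nr1i3 by -0.21 and Nr2f2 by -0.22.

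Facts of the arrays that bear on these values are brief. The array medians were 3.73 to 3.76. The 3′ minus 5′ difference, a measure of RNA integrity, was 0.11 to 0.21 for Gapdh and 1.01 to 1.16 for β-actin. The smallest differences above are of the size seen in many genes. The median absolute difference over all genes was 0.09 for 8 vs 4 months and 0.10 for 21 vs 4 months, so a member that differed by about 0.1 is not set apart from the typical gene.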

How the data were processed

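Liver RNA of male mice was measured on 4 oligonucleotide arrays, 1 per age, grouped by the labelled age. The deposited values are log2 expression of 45101 probe sets (1.22 to 13.7) made by the authors with RMA, per the submitters' processing notes. RMA brings array distributions together, so a shift of most genes would not be seen, and it compresses dim differences. Its version is not known here. The number of arrays limits the precision.

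Of the probe sets 64 were controls, 34945 carried 1 symbol and 932 several. Symbols were checked by gene identifier against RefSeq genes of GRCm38.p6 (34741 matched, 0 changed). The probe set with the highest mean represented a gene, and 9010 of 18193 genes had several. No test was run, because each age has 1 array. Genes named are all 9 members, the 3 nearest profiles of members with a range of at least 0.4, and from each list up to 3 genes with the largest 21 vs 4 months differences and up to 2 in other comparisons. Other list genes named, such as Alb, Ttr, Dbp, Per2, Hlf, Cldn4, Ltf, Krt19, Onecut2, Mbtps1, Mbtps2, Cebpd, Nr1h4 and Rxra, were chosen after their values were seen, as were the promoters shown and the distance measures for Onecut1 and Foxa1. The members and the 19 lists were chosen with earlier results of these data known. The counting step was run on simulated data with known changes and little noise. This checks the code alone and not the error of the counts. Alternative normalizations used limma 3.58.1 in R 4.3.3, and all else pandas 2.3.3 and numpy 2.4.6 in Python 3.11.15, with matplotlib 3.10.9 for figures.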

Additional observations from a re-analysis of the deposited data

How the results depend on the processing

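The results are differences between single pools, so none has an error of its own, and values near the filter cannot be told from background. No paired analysis was possible because each age has 1 array. An alternative was taken as unchanged where a value moved by at most 0.1 on the log2 scale or a count by at most 1.5 times. The counts of members and their median range were unchanged with arrays centred on their medians, no level filter, a filter at the 75th percentile, the mean over probe sets, and the probe set with the highest value.

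With quantile normalization or cyclic loess Cebpb was just under 1.2-fold, at -0.24 and -0.26 for 8 vs 4 months, which left 1 member for 8 vs 4 months in place of 2 and 0 for 13 vs 8 months in place of 1. It was also under 1.2-fold for 21 vs 8 months, at 0.19 and 0.21. By construction a threshold of 1.1-fold gave more members, 3 for 13 vs 4, 3 for 13 vs 8, 6 for 21 vs 13, 5 for 21 vs 4 and 6 for 21 vs 8 months. A threshold of 1.5-fold gave 0 for 13 vs 8 and 21 vs 4 months and 1 for 8 vs 4, 21 vs 13 and 21 vs 8 months. At 2-fold 1 member was left, for 21 vs 13 months, and 0 in the other 5 comparisons. With the mean of the 3 younger arrays as baseline 2 members were different at 21 months, Foxa1 (-0.51) and Onecut1 (-0.71), in place of 1. With the mean over probe sets Onecut1 differed by 0.90 for 8 vs 4 months and 0.00 for 13 vs 8 months, and Prox1 by 0.07 for 21 vs 13 months. The bile duct list, with 3 genes above the filter, had a median of 0.28 for 21 vs 13 months. With the mean over probe sets this median was -0.12, and the cause was not tested. With no filter it was -0.23, because the markers below the filter then join the list. Of these Krt19, Krt7, Sctr and Cldn7 differed by -0.33, -0.25, -0.43 and -0.23, and Cftr and Muc1 by 0.02 and 0.11.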

Other observations

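Beyond the genes named by the rule, the 10 profiles nearest to Onecut1 held Pdk4, Cish and Socs2, picked out here after their values were seen. Pdk4, a kinase that holds back glucose oxidation, was at 4.69, 5.23, 5.17 and 4.19 at 4, 8, 13 and 21 months. Cish was at 7.26, 7.71, 7.75 and 7.09, and Socs2 at 7.67, 8.24, 8.62 and 7.82. Cish and Socs2 encode feedback inhibitors of cytokine receptors, among them the growth hormone receptor. All 3 were higher at 8 and 13 months than at 4 and 21 months. Growth hormone was not measured here.

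Fgf21 followed a like course at a lower level, at 4.93, 5.23, 5.22 and 4.40, and Ppargc1a, a co-activator of HNF4A in fasting, was at 6.08, 5.50, 5.93 and 5.83, lowest at 8 months.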
